A study of Cricetulus griseus and Cricetulus griseus
Mus musculus and Mus musculus with 202 samples.

Results

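The hybrid lines described here were picked from the T31 radiation hybrid panel by the level of Nme2, a gene of mouse chromosome 11. A line was taken as high in Nme2 where its ratio over the A23 hamster line, averaged over its 2 arrays, was above 1 on the log2 scale. It was taken as low where that mean was below 0.5. This gave 22 high lines and 74 low lines of the 99 lines measured, and 3 lines that lay between were left out. Each hybrid line of both groups is a clone of A23 hamster cells that carries fragments of the mouse genome, and all were grown in DMEM with 10% serum and antibiotics without a further treatment named in the labels. Every array set the RNA of a line against RNA of A23 itself, and the dyes were exchanged between the array called replica 1 and the array called replica 2. The series of 202 arrays also holds 4 arrays of mouse brain or liver RNA against the same hamster tissue.

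A radiation hybrid is made by fusing irradiated donor cells with cells of another species, so that each clone keeps a different set of donor chromosome fragments next to a whole host genome. Genes that lie close together on a donor chromosome tend to be kept or lost together, which is how such panels were used to order genes. A23 is a Chinese hamster fibroblast line without thymidine kinase, and hybrids were selected for the mouse Tk1 gene, which lies near the far end of chromosome 11. Nme2 and Nme1 lie side by side on this chromosome and encode the subunits of cytosolic nucleoside diphosphate kinase, which passes phosphate from ATP to other nucleoside diphosphates. NME1 was described as a suppressor of metastasis, and NME2 also binds DNA at the promoter of the MYC gene in human cells.

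Nme2 chose the groups, so its values are given as a description with no test. Its line mean in the high lines had a lowest value of 1.47, a median of 4.20 and a highest value of 5.81 (log2 ratio over A23). In the low lines the lowest value was -0.66, the median -0.07 and the highest 0.42. The means were 3.96 ± 1.27 in high lines and -0.08 ± 0.20 in low lines (SD, n = 22 and 74). The nearest lines on either side of the upper limit were line 3 at 1.47, inside, and line 8 at 0.93, outside. At the lower limit they were line 86 at 0.42, inside, and line 34 at 0.50, outside. Few lines thus lay near the limits.

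The 2 arrays of a line did not always give the same picture of Nme2. It was above 1 on both arrays in 17 of the 22 high lines and on 1 array in lines 3, 29, 40, 60 and 92. In line 29 it was 4.42 on replica 1 and -0.19 on replica 2. In line 60 it was 0.12 on replica 1 and 4.20 on replica 2. Lines 40 and 92 were also high on replica 2 alone, at 6.70 and 5.88, against 0.55 and 0.21 on replica 1. In the low lines, 68 of 74 were below 0.5 on both arrays. The plot of Nme2 on both arrays shows these 5 high lines below 1 on one of its axes.

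**Figure D1:**
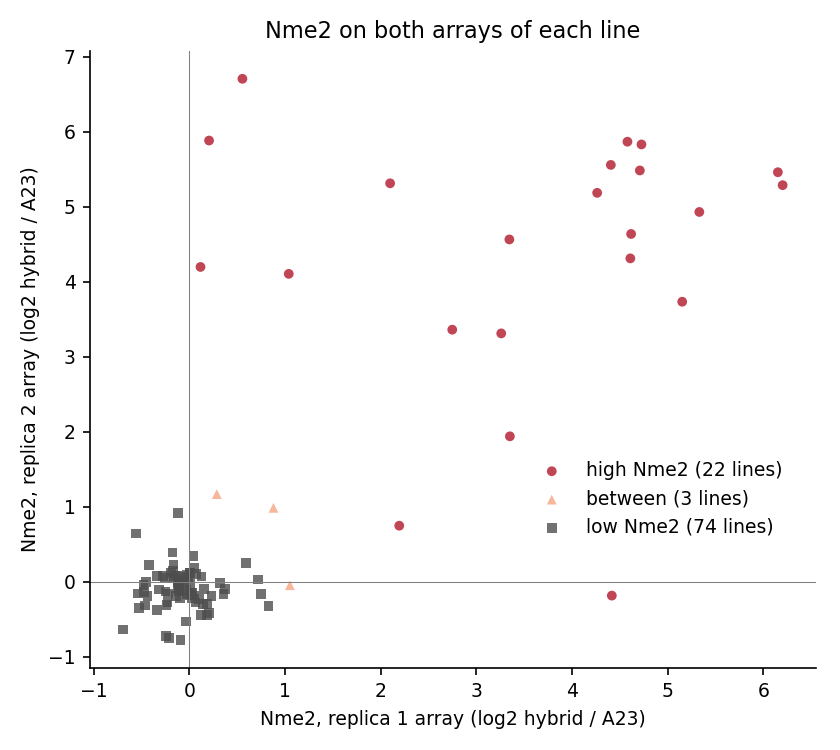
Each point is a hybrid line, with the log2 ratio of Nme2 over A23 on its replica 1 array (horizontal) and on its replica 2 array (vertical), for 22 high, 3 between and 74 low lines. Low lines gather near 0, and lines 29, 40, 60 and 92 lie along an axis because Nme2 was high on only 1 of their arrays.

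Several properties of the arrays were set beside the groups before any gene was compared. The spread of an array over its features (SD, log2) had a median of 0.849 in high lines and 0.834 in low lines. The share of values of exactly 0 had a median of 7.36% in high lines and 8.53% in low lines. A line's replica 2 array was the best match of all replica 2 arrays to its replica 1 array in 4 of 22 high lines and 9 of 74 low lines. Arrays of the same line thus often resembled another line's array more than each other. With only those 4 high and 9 low lines in the fit, 0 genes were called by limma, while 557 higher and 413 lower genes had a p under 0.05 before adjustment. In that smaller fit the differences of the genes named next were 1.53 for Nme1, 1.497 for Mbtd1, 1.54 for Igf2bp1, 0.98 for Col1a1 and 1.07 for Mrpl10, against 1.49, 1.48, 1.45, 1.57 and 0.95 with all lines. RNA came from whole cultures, so fewer cells that carry a mouse fragment and less RNA from each of them cannot be told apart.

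High lines were compared with low lines over 16503 genes other than Nme2, with 1 value per line. At an adjusted p under 0.05 (limma, Benjamini-Hochberg over all these genes), 10 genes were higher in high lines, which is 0.0606% of the genes tested. None was lower (0%), while 298 higher genes had a p under 0.05 before adjustment, and so did 101 lower ones. All 10 lie on mouse chromosome 11. The genes were Nme1, Mbtd1, Igf2bp1 and Col1a1 of the list of Nme2 neighbours, and Scpep1, Mrpl10, Cwc25, Rpl23, Med1 and Cdc6 farther along the chromosome on either side. Outside the neighbour list, 6 of 16449 genes were higher (0.0365%) and 0 lower. The wider lists of chromosome 11 genes hold those 6, so 0 of the 16301 genes outside all these lists were called. With lists drawn up in that way, this 0 is a description and not a test. Before adjustment, 254 higher and 100 lower of the 16301 passed a p of 0.05 (limma). A fit on single arrays, with replicate block for the dye orientation and line as a random block, called 19 higher genes and 0 lower. The same 10 were among the 19, and 4 others (C1ra, Ncapd2, Tpi1 and Washc1) were in none of these lists. In that fit the consensus correlation between the arrays of a line was 0.047, so these arrays counted almost as separate replicates. The files give no gene positions, so the order of genes on the chromosome is background knowledge and no distance is given, and the wider lists were drawn up after values had been seen.

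Nme1, which encodes the other subunit of the enzyme, had a lowest line mean of 0.59, a median of 1.52 and a highest of 3.32 in high lines, against -0.65, 0.19 and 1.21 in low lines. All but 5 of the high lines lay above every low line. The difference was 1.49 (SE 0.124, 95% interval 1.24 to 1.73), or 2.80-fold, with an adjusted p of 1.08e-16 (limma). Nme1 was above 1 in 18 of 22 high lines and in 1 of 74 low lines, line 49. Nme1 and Nme2 have closely similar sequences and each was measured by 1 feature. The probe sequences were not used here, so RNA of either gene binding the other's probe was not tested.

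Mbtd1, which encodes a protein that binds methylated histones, had a lowest line mean of -0.11, a median of 1.19 and a highest of 2.96 in high lines, against -1.82, -0.15 and 1.72 in low lines. The groups overlapped, and 5 high lines lay above every low line. It was above 1 in 17 of 22 high lines and 1 of 74 low lines. The difference was 1.48 (SE 0.146, 95% interval 1.19 to 1.77), with an adjusted p of 3.99e-13 (limma).

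Igf2bp1, an RNA-binding protein that binds the mRNA of Igf2 and other transcripts in the embryo, had line means of -0.16, 1.38 and 2.92 in high lines (lowest, median, highest), against -1.27, -0.06 and 1.09 in low lines. The difference was 1.45 (SE 0.133, 95% interval 1.19 to 1.72), with an adjusted p of 1.21e-14 (limma). Of the high lines, 15 lay above every low line. The gene was above 1 in 16 of 22 high lines and in 1 of 74 low lines.

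Col1a1, which encodes a chain of type I collagen, had line means of -0.46, 1.22 and 4.41 in high lines, against -1.14, -0.11 and 1.94 in low lines. High lines varied more than low lines, with an SD of 1.33 (n = 22) against 0.462 (n = 74). The difference was 1.57 (SE 0.180, 95% interval 1.21 to 1.92), with an adjusted p of 3.18e-10 (limma). Col1a1 was above 1 in 12 of 22 high lines and 2 of 74 low lines, and 9 high lines lay above every low line.

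**Figure D2:**
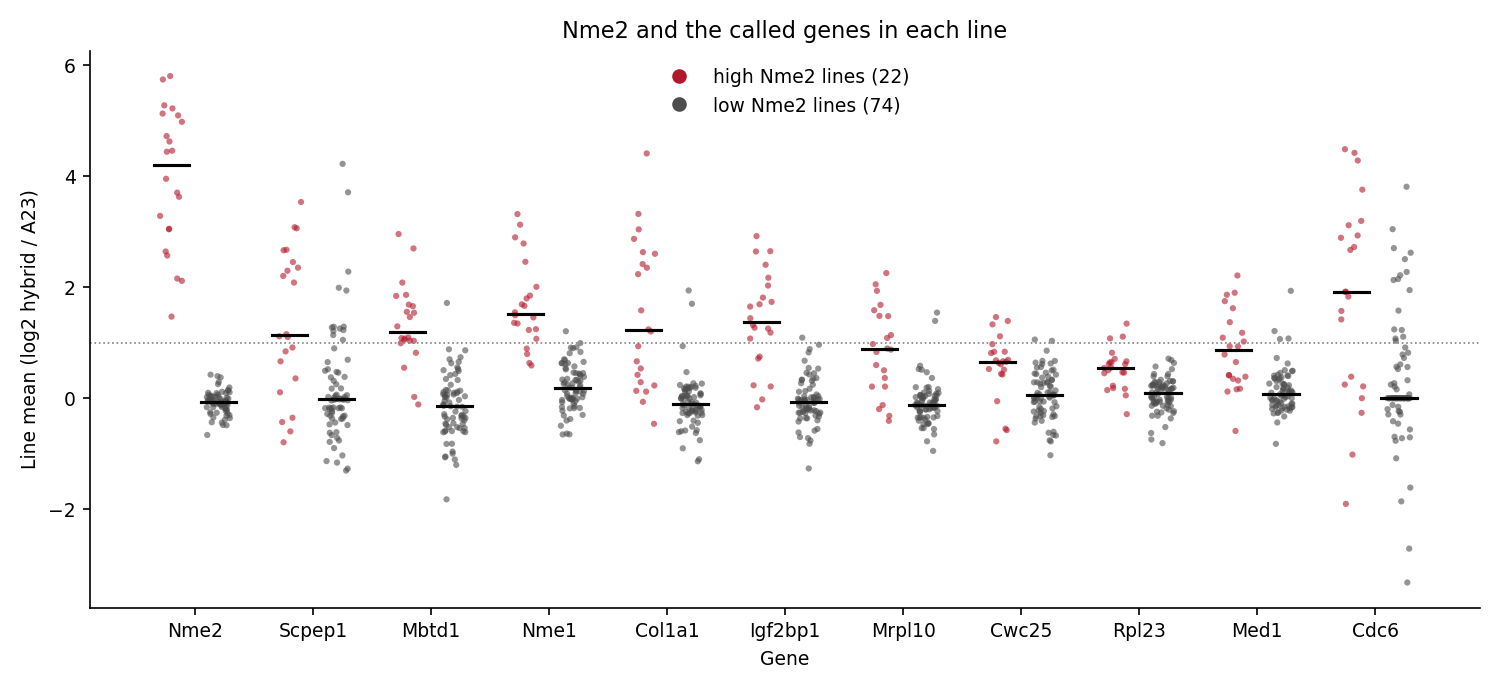
Line means (log2 ratio over A23, vertical) of Nme2 and of the 10 called genes in map order are drawn as points for 22 high and 74 low lines, with black bars at the medians and a dotted line at 1. Nme2, which set the groups, does not overlap between them, and Nme1 and Igf2bp1 overlap in fewer lines than Cdc6 and Scpep1.

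The 4 neighbours were picked because they were called between these groups, so their counts by line are a description. Singly, Nme1, Mbtd1, Igf2bp1 and Col1a1 were above 1 in 18, 17, 16 and 12 of the 22 high lines. Whether they were high together more often than these single counts would give was not tested. All 4 were above 1 in 6 of the 22 high lines, 3 were in 9 lines and 2 were in 6 lines. Line 3, the high line nearest to the limit, had none of them above 1. Of the low lines, 69 of 74 had none above 1 and 5 had 1 of the 4, and no low line had more. The heat map of the called genes shows that the high lines differed in which of the 4 were high.

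**Figure D3:**
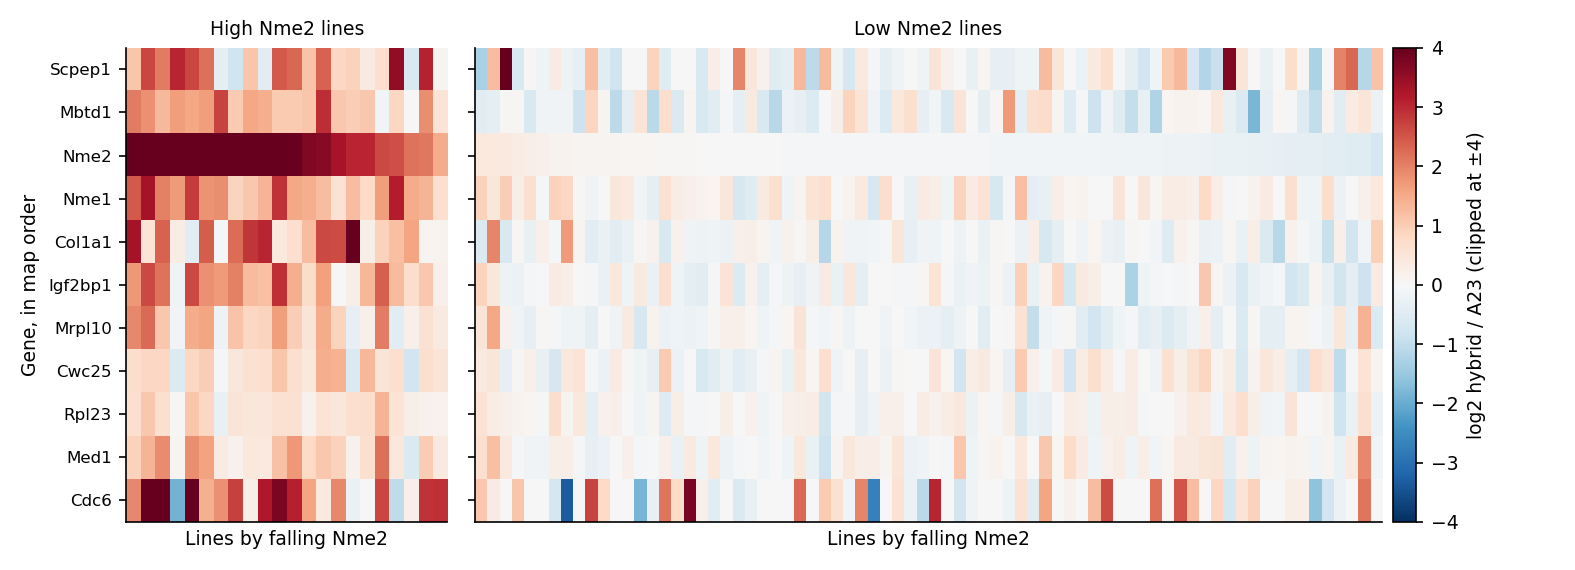
Colour gives the line mean (log2 ratio over A23, clipped at 4 in either direction) of Nme2 and the 10 called genes, in map order down the page, in 22 high lines and 74 low lines ordered by falling Nme2. The rows from Mbtd1 to Igf2bp1 are mostly red in high lines and pale in low lines, and the outer rows of Scpep1 and Cdc6 are red in lines of both groups.

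In the lines with discordant arrays, the called neighbours can be described array by array. In line 40, Nme1 was 0.34 on replica 1 and 2.12 on replica 2, and Col1a1 was -0.56 and 5.83. Both were high on the array on which Nme2 was high, while Mbtd1 was 2.16 on replica 1 and 3.76 on replica 2. In line 60, Nme1 was 0.53 on replica 1 and 2.46 on replica 2, while Mbtd1 was 0 and 0.04. In line 29, where Nme2 was high on replica 1, Nme1 was 1.82 on that array and 0.89 on replica 2, and Mbtd1 was 2.11 and 1.61. In line 92, Mbtd1 was 1.06 on replica 1 and 1.11 on replica 2, and Nme1 was -0.07 and 1.66. In line 3, Mbtd1 was 1.18 on replica 1 and -0.08 on replica 2, and Nme1 was 0.89 and 0.38. Nme1, Mbtd1 and Col1a1 were each higher on the array with the higher Nme2 in each of these 5 lines. Both the lines and the genes were picked from these data. How many of all genes were higher on the same array was not counted, so whether neighbours followed Nme2 was not tested. In line 3 the gap of Col1a1 was small, with 0.20 on replica 1 and 0.06 on replica 2. The gap of Mbtd1 was small in lines 60 and 92, and Mbtd1 was above 1 on both arrays of lines 29, 40 and 92. Col1a1 was 2.27 on replica 1 and -2.03 on replica 2 in line 29, and -0.21 and 3.37 in line 60. Igf2bp1 was lower on the array with the higher Nme2 in lines 3 and 92.

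Of the 54 neighbours measured of 55 listed, 4 were higher and 0 lower, and 50 did not pass the test. The share higher was 7.41%, beside 0.0606% over all genes tested. The median difference over the 54 was 0.08, beside 0.02 over all 16503 genes, and 40 of the 54 were above 0, beside 58.6% of all genes. In the part of the list from Utp18 to Itga3, which holds the genes closest to Nme2, 3 of 26 were higher with a median of 0.12. The genes directly beside the called neighbours did not all follow them. Spag9, a scaffold of JNK signalling, averaged -0.13 ± 0.34 in high lines and -0.04 ± 0.34 in low lines, a difference of -0.09 (95% interval -0.26 to 0.08, n = 22 and 74). Tob1, which restrains proliferation, differed by 0.01 (95% interval -0.13 to 0.14), and Wfikkn2, a secreted protein with protease inhibitor domains, differed by -0.01 (95% interval -0.17 to 0.16). The intervals of Spag9, Tob1 and Wfikkn2 all spanned 0 and ended below those of the called neighbours.

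Other close genes had positive differences that missed the threshold. Luc7l3, a splicing factor, averaged 0.52 ± 0.64 in high lines and -0.07 ± 0.57 in low lines (adjusted p = 0.115, limma), and it was above 1 in 5 of 22 high lines and 2 of 74 low lines. It was called in the fit with the replicate block (adjusted p = 0.037), and also at thresholds of 1.5 and 0.25, with continuous Nme2, with 5 principal components and with Nme2 agreeing on both arrays. Utp18, which takes part in processing of ribosomal RNA, averaged 0.33 ± 0.49 in high lines and -0.06 ± 0.39 in low lines (adjusted p = 0.176, limma). It was called with continuous Nme2 (adjusted p = 0.0408), with arrays scaled by their spread (0.00522) and with 5 principal components (0.000451). Abcc3, a transporter of organic anions, differed by 0.46 (95% interval 0.17 to 0.76), and Pdk2, a kinase that inhibits pyruvate dehydrogenase, by 0.29 (95% interval 0.10 to 0.48), both with an adjusted p of 1 in limma. Among the remaining close genes the differences of Itga3, Xylt2 and Acsf2 were 0.09, 0.0004 and 0.03. Of the 26 closest genes, 8 had a positive difference with an unadjusted p under 0.05 and 0 a negative one. Over all 16503 genes these counts were 298 and 101 (limma).

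**Figure D4:**
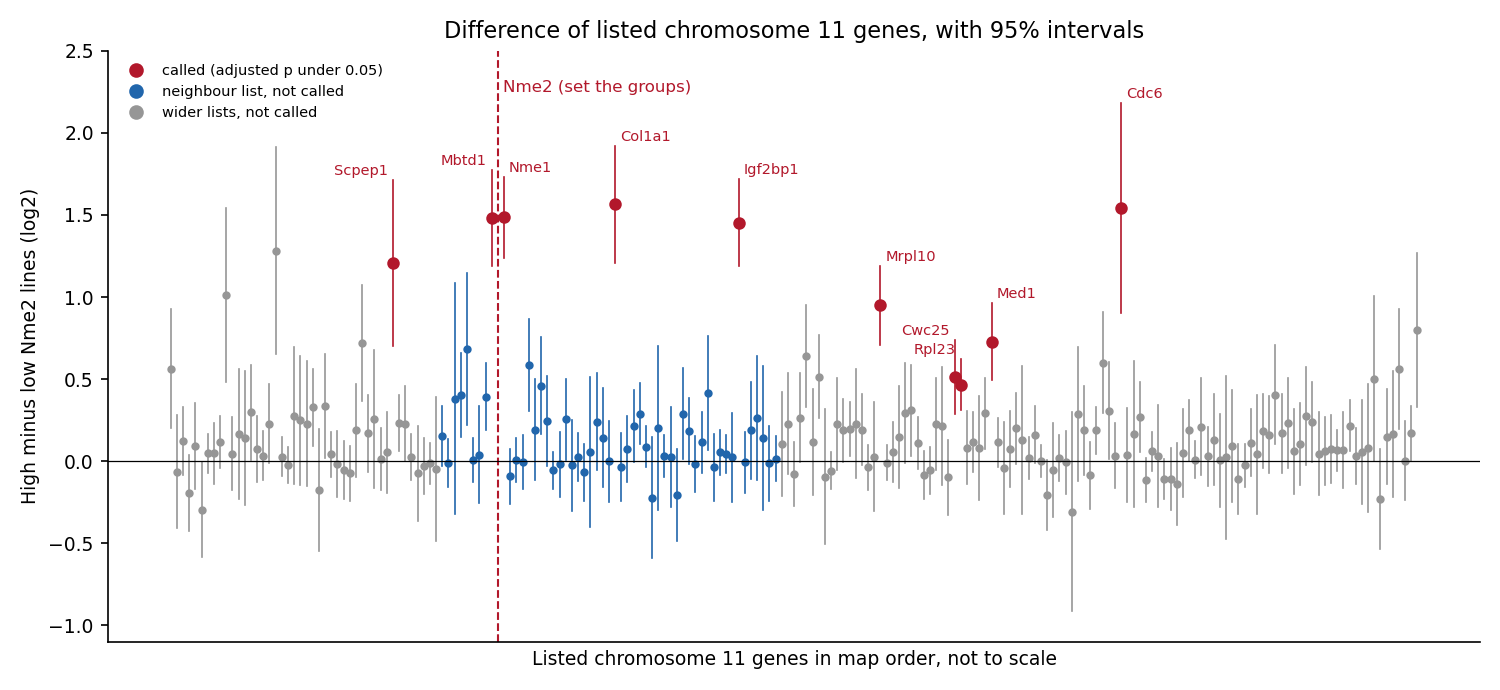
Points give the difference of high minus low lines (log2, vertical) with 95% intervals for the listed chromosome 11 genes in map order (horizontal, not to scale), with called genes in red, other neighbours in blue and other genes of the wider lists in grey. Called genes stand among genes whose intervals reach 0, and Nme2, at the dashed line, is left out because it set the groups.

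The other 6 called genes lie farther from Nme2 on chromosome 11 and were outside the neighbour list. Mrpl10, a protein of the large mitochondrial ribosomal subunit, had line means of -0.41, 0.89 and 2.26 in high lines (lowest, median, highest), against -0.95, -0.12 and 1.54 in low lines. It differed by 0.95 (SE 0.122, adjusted p = 2.11e-08, limma), and 9 of 22 high lines and 2 of 74 low lines were above 1. Med1, a subunit of the Mediator complex of transcription, had 0.86 as its median in high lines and 0.08 in low lines, and differed by 0.73 (SE 0.118, adjusted p = 3.72e-05, limma). The groups overlapped for both genes.

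Rpl23, a protein of the large cytosolic ribosomal subunit, averaged 0.53 ± 0.37 in high lines and 0.07 ± 0.30 in low lines, a difference of 0.47 (SE 0.0779, adjusted p = 8.63e-05, limma). Cwc25, a splicing factor, averaged 0.57 ± 0.60 in high lines and 0.06 ± 0.43 in low lines, a difference of 0.52 (SE 0.114, adjusted p = 0.0284, limma). These were the smallest differences among the called genes, and only 4 high lines lay above every low line for either gene.

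Cdc6, a loading factor of replication origins, averaged 1.85 ± 1.80 in high lines and 0.31 ± 1.18 in low lines, a difference of 1.54 (SE 0.322, adjusted p = 0.0118, limma). It was above 1 in 15 of 22 high lines and in 16 of 74 low lines. Exactly 0 was deposited for Cdc6 on 50% of the hybrid arrays, and with such values taken as missing it was not tested for want of lines with a value. Scpep1, a serine carboxypeptidase, averaged 1.39 ± 1.32 in high lines and 0.18 ± 0.98 in low lines, a difference of 1.21 (SE 0.255, adjusted p = 0.0131, limma). It was above 1 in 13 high lines and 13 low lines, so many lines with low Nme2 had a high ratio of it.

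Counts over the wider lists were 1 higher of 44 genes measured between the neighbour list and the middle of the chromosome, and 5 higher of 104 genes from the other end of the neighbour list towards Tk1, with 0 lower in either. Their medians were 0.08 and 0.11, beside 0.02 over all 16503 genes. The shares higher were 2.27% and 4.81%, beside 0.0606% of all genes. Both lists were drawn up after values had been seen, so these counts are a description and not a test. Ska2, a protein of the kinetochore, differed by 1.28 with an adjusted p of 0.121 (limma), and Srsf1, a splicing factor, by 0.72 with an adjusted p of 0.121. Hoxb5, a transcription factor of the embryonic body axis, differed by 0.64 (adjusted p = 0.121, limma). The fit with the replicate block called Ska2, Srsf1 and Hoxb5, and Ska2 and Srsf1 were also called at thresholds of 1.5 and 0.25, with continuous Nme2, with arrays scaled by their spread and with Nme2 agreeing on both arrays. Tk1, for which the panel was selected, averaged 1.90 ± 0.73 in high lines and 1.79 ± 0.81 in low lines, a difference of 0.12 (95% interval -0.26 to 0.49). Tk1 was above 1 in 19 of 22 high lines and 62 of 74 low lines, so most lines of both groups had a high ratio of it.

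The grouping and the test of other genes can be put on different arrays. With lines grouped by Nme2 on replica 1 alone (20 high, 73 low) and the other genes tested on replica 2, 6 genes were higher (0.0364% of those tested) and 0 lower. With lines grouped on replica 2 (21 high, 74 low) and tested on replica 1, 6 were again higher (0.0364%) and 0 lower. Before adjustment, 200 lower genes passed a p of 0.05 in the first fit and 44 in the second. Nme1, Mbtd1, Igf2bp1, Col1a1 and Mrpl10 passed in both directions. The adjusted p of Nme1 was 4.43e-11 in the first fit and 7.7e-05 in the second, and that of Mbtd1 was 5.02e-07 and 0.0384. Med1 passed in the first fit alone and Rpl23 in the second alone. With the groups kept and replica 1 left out, Cdc6, Cwc25 and Rpl23 were not called, and with replica 2 left out Cdc6, Cwc25 and Scpep1 were not. Cdc6, Scpep1 and Cwc25 passed in neither exchange of arrays, with adjusted p-values of 0.998, 0.101 and 0.499 in the first fit and 0.338, 0.806 and 1 in the second. Their differences in these fits were 1.13 and 1.78 for Cdc6, 1.18 and 1.09 for Scpep1, and 0.54 and 0.49 for Cwc25.

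**Figure D5:**
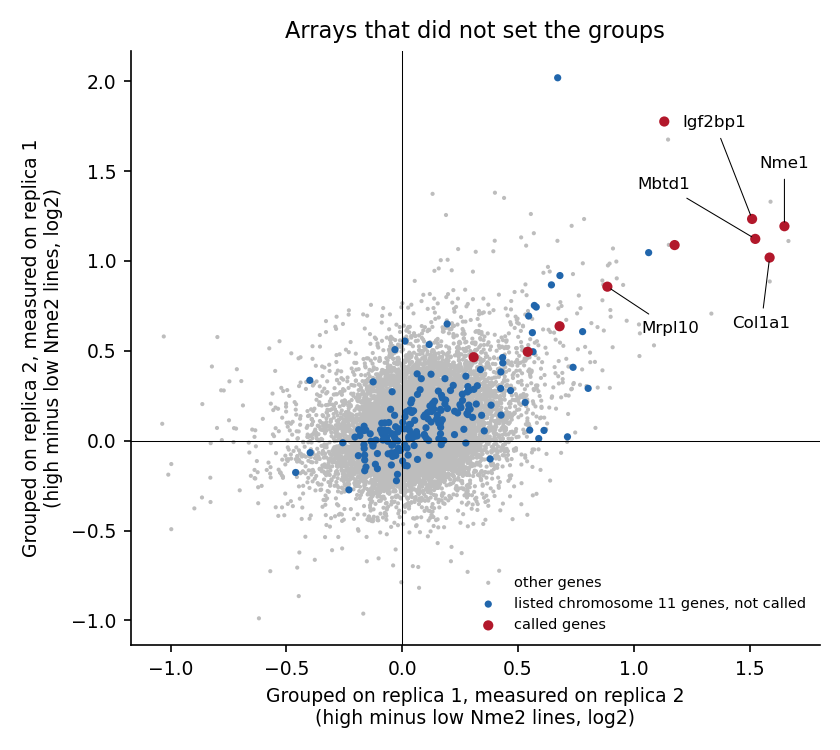
Each point is a gene, with its difference of high minus low Nme2 lines (log2) when lines were grouped on replica 1 and measured on replica 2 (horizontal) and the reverse (vertical). Nme1, Mbtd1, Igf2bp1, Col1a1 and Mrpl10 lie at the upper right, and most of the 16503 genes surround 0.

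Genes that share a function with Nme2 were examined through lists. Over all 16503 genes, 0.0606% were called higher, the median difference was 0.02 and 58.6% were above 0. Before adjustment, 298 of all genes were higher at a p under 0.05 (limma). Of 15 measured members of the nucleoside diphosphate kinase family and related nucleotide kinases, 1 was higher (Nme1) and 0 lower, with a median of 0.02. Nme3, a member found at the outer mitochondrial membrane, averaged -0.21 ± 0.41 in high lines and -0.31 ± 0.54 in low lines. Nme4, the mitochondrial member, averaged 0.27 ± 1.29 in high lines and 0.52 ± 1.55 in low lines. Nme6 averaged 0.13 ± 0.37 in high lines and 0.16 ± 0.30 in low lines. None of Nme3, Nme4 and Nme6 was called. Their differences were smaller than the SD between high lines, which was also so for the called genes Cdc6 and Scpep1. Of 33 genes of nucleotide synthesis and salvage, 0 were called and 0 were past an unadjusted p of 0.05; their differences ran from -0.07 to 0.33, the highest for Atic, an enzyme of purine synthesis. Of 10 genes tied to nucleoside diphosphate kinases in studies of metastasis and adhesion, Nme1 was higher and the other 9 did not pass.

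Of 19 genes of the list for Myc and its targets, 0 were called by limma and 1 was higher at an unadjusted p under 0.05. Nop58, a core protein of small nucleolar ribonucleoproteins, differed most there, by 0.83 (95% interval 0.09 to 1.57, adjusted p = 1). Of 36 oxidative phosphorylation genes, 0 were called and 3 were higher at an unadjusted p under 0.05, beside 298 of all 16503 genes. The largest difference in that list was that of Uqcrq, a subunit of complex III, at 0.96 (95% interval 0.19 to 1.74, adjusted p = 1 in limma). The median of the list was 0.19 and 35 of the 36 were above 0, beside 0.02 and 58.6% over all genes. Of 28 ribosomal protein genes, Rpl23 was higher, and the median was 0.18, with 27 of the 28 above 0, again beside 58.6% of all genes. Of 30 DNA replication genes, Cdc6 was higher, and the median was 0.07. Proteasome genes (24 measured), mitosis genes (25), heat shock and folding genes (26) and genes of the type I interferon response (18) had no called member and none past an unadjusted p of 0.05, with medians of 0.15, 0.03, 0.14 and 0.06. Of their members, 21, 14, 21 and 12 were above 0, beside 58.6% of all genes. Only 10 genes were called over all 16503, so any called member of these lists had to be one of those 10.

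Markers of cell types were examined in the same way. Of 13 fibroblast markers, Col1a1 was higher and 12 did not pass, with a median of 0.28 and 12 of the 13 above 0. Of 22 extracellular matrix genes Col1a1 was again the called member, with a median of 0.18 and 17 of the 22 above 0. Over all 16503 genes the median was 0.02, 58.6% were above 0 and 0.0606% were called higher. Of 7 epithelial, 5 blood and 5 smooth muscle markers 0 were called. Among them 1 epithelial gene (Krt19, 0.16) and none of the others passed an unadjusted p of 0.05 (limma). Above 0 were 2 of the 7 epithelial, 2 of the 5 blood and 5 of the 5 smooth muscle markers. Ratios against A23 do not show whether a marker is present, only whether it differs between the groups.

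Other genes by which lines of the panel differ widely were not called between the groups. Of 11 such genes, 0 were called and 2 were higher at an unadjusted p under 0.05, beside 298 of all 16503 genes (limma). C1ra, a complement protease encoded on chromosome 6, averaged 2.34 ± 2.80 in high lines and 0.74 ± 1.81 in low lines, a difference of 1.59 (adjusted p = 0.928, limma). Its difference exceeded those of the 10 called genes, with line-to-line SDs larger than it. Exactly 0 was deposited for C1ra on 62.1% of the hybrid arrays, and its median in low lines was 0. With such values taken as missing C1ra was not tested. The fit on single arrays with the replicate block called it (adjusted p = 0.0391, limma). S100a11, a calcium-binding protein, averaged 2.19 ± 2.59 in high lines and 1.95 ± 2.48 in low lines, with exactly 0 on 38.9% of the hybrid arrays. Ifitm3, an interferon-induced membrane protein, averaged 1.01 ± 1.89 in high lines and 1.18 ± 2.05 in low lines.

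Mouse tissue RNA was set against hamster tissue RNA on the same features, with 2 arrays per tissue and no test here. In 99.3% of features the tissue ratios had been centred to a median of 1 over the 4 tissue arrays. A shift shared by both dye orientations cancels in the mean of the 2 arrays but not in 1 array. A value from 1 array is therefore not a species ratio by itself. Nme2 averaged at least 3.82 in brain and at least 3.89 in liver (log2, mouse over hamster), bounds because the replica 1 value of each lay at the lowest value the file holds; on replica 2 alone Nme2 was 1.00 in brain and 1.13 in liver. Nme1 averaged 2.73 in brain (4.52 and 0.95 on its arrays) and 4.40 in liver (3.76 and 5.05). Mbtd1 averaged 2.41 in brain (3.14 and 1.68) and 2.20 in liver (3.48 and 0.92). The 2 arrays of a tissue thus often differed widely. Leaving 1 out moves the means of Nme2 in both tissues and of Nme1 in brain by more than 1.5 on the log2 scale. Centring moves the 2 dye orientations in opposite directions once signs are turned, so this gap does not measure how well arrays repeat. How much of the gap comes from the centring was not tested. Col1a1 was -0.32 in brain and -0.37 in liver, and Igf2bp1 was -0.25 and -0.71. Features with a high ratio in the high lines thus included some with a mouse to hamster ratio well above 0 in these tissues and some with a ratio below 0.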

How the data were processed

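Total RNA of hybrid lines and A23 was compared on 2-colour arrays, with 2 dye-exchanged arrays for each of 99 lines. The authors deposited log10 ratios (Cy5 to Cy3, per the labels); how arrays were scanned, background-corrected and normalised is not given in the sources used here. Signs of replica 1 were turned to give hybrid over A23 (mouse over hamster in tissues), and values were converted to the log2 scale. The table held 20868 features, of which 17786 carried 1 gene symbol, 16 several and 3066 none in the platform annotation; features were averaged to 16504 genes. In 99.3% of features the 4 linear tissue ratios had a median of 1 (tolerance 1e-06), so tissue features had been centred before deposit. Intensities were not used here, and precision is limited by how many arrays there are.

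Line means were compared between high and low lines with limma 3.58.1 (lmFit, eBayes; R 4.3.3), with Benjamini-Hochberg adjustment over all genes but Nme2 and calls at an adjusted p under 0.05. Members and gene lists were chosen with earlier results of these data known. Named genes were Nme2, its closest neighbours, called genes with the same sign on both replicas, the genes that differ most in each list, and other genes that split the panel; further genes were named after their values were seen (Nme3, Nme4, Nme6, Ska2, Srsf1, Hoxb5 and those of the closing section). Lines are separate clones, but each gives 1 RNA comparison per array. In fits with 1 value per line, p-values measure the spread between lines. In the fit on single arrays the arrays of a line counted almost as separate replicates (consensus correlation 0.047). Same-numbered replicas share the dye orientation, per the labels. Alternatives were the replica left out, exchanged arrays, the replicate block, other thresholds, continuous Nme2, scaling, exact zeros, wide arrays, covariates, matched lines, a size limit, other eBayes settings and single features. The script was tested on simulated data.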

Additional observations from a re-analysis of the deposited data

How the results depend on the processing

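None of the alternatives run called a gene lower, and none of the 10 called genes changed sign in any; of 54 other named genes, 28 changed sign in at least 1, 22 of them with matched lines. Leaving out a replica gave 7 to 8 higher genes over all genes and 3 to 4 outside the neighbour list, against 10 and 6. With groups and test on different arrays, 6 and 6 were higher, 2 and 2 of them outside the list. The fit on single arrays with the replicate block called 19 (14 outside), continuous Nme2 18 (12 outside), arrays scaled by their spread 16 (11 outside) and 5 principal components 16 (10 outside). With Nme2 above 1 or below 0.5 on both arrays, chosen after seeing the data, 16 were higher, 11 outside, all on the chromosome 11 lists. With lines whose own second array matched best, 0 were called among all genes, in the neighbour list, among the closest genes and outside; 9 neighbours were then higher at an unadjusted p under 0.05 (limma, 4 against 9 lines), and the differences of the called genes ran from 0.61 to 2.59. Among the closest genes continuous Nme2 and principal components called 5 each, against 3. Genes of no chromosome 11 list were called under the block (C1ra, Ncapd2, Tpi1, Washc1), continuous Nme2 (Dctn2, Ncapd2), scaling (B230217C12Rik, Fbln1, Ncapd2), principal components (B230217C12Rik, Dctn2) and without replica 1 (Tpi1). The cause of these changes was not tested. The lists were drawn up without gene positions, so a gene in none of them may still lie on chromosome 11. Calls of Cdc6 and Cwc25 were lost in 6 alternatives each, Scpep1 in 5, Rpl23 in 4, Med1 in 2 and the other 5 called genes in 1, the matched lines. Groups set by each Nme2 feature were not run because 1 feature measures it, nor was the rest of chromosome 11 by position.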

Other observations

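Genes of the far end of chromosome 6 gave some of the largest differences that did not pass. Tpi1, the glycolytic triose phosphate isomerase, differed by 1.00 (adjusted p = 0.176, limma), M6pr, a receptor that sorts lysosomal enzymes, by 1.27, and Necap1, a protein of clathrin-coated vesicles, by 0.87; C1ra of the same region is given above. All 4 were above 1 in 7 of 22 high lines and 8 of 74 low lines, and none of the 4 in 7 high lines and 48 low lines. These genes were chosen after their values were seen, and 0 of the 40 measured genes listed for this region were called. Before adjustment 7 positive and 1 negative difference of the 40 had a p under 0.05 (limma). Over all 16503 genes these counts were 298 and 101. Rnf187, a ubiquitin ligase, was above 1 in 12 of 22 high lines and 19 of 74 low lines, and differed by 1.45 (adjusted p = 0.996, limma). Rnf187 is not placed in this region here, because no gene positions were given.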
